A study of Mus musculus with 3 samples.

Results

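The genes described here are those of glutathione metabolism, the thioredoxin system and related antioxidant defence in lung type 2 innate lymphoid cells (ILC2s), lymphocytes that lack rearranged antigen receptors and release type 2 cytokines. Members were chosen by a rule on the gene symbol, with earlier results of these data known. It took glutathione peroxidases (Gpx), peroxiredoxins (Prdx), symbols starting with Txn, glutathione transferases (Gst and Mgst) and superoxide dismutases (Sod). It also took glutaredoxins (Glrx), haem oxygenases (Hmox) and quinone reductases (Nqo), with Gclc, Gclm, Gss, Gsr, Cat, Nfe2l2, Keap1 and Srxn1. The rule found 71 of the 16129 listed genes. The 3 libraries were made from sorted lung ILC2s of wild-type mice treated in vivo with IL-33, an alarmin released by epithelium. They form 1 group, numbered 1 to 3 as in the titles. No untreated cells were analysed here, and the response to IL-33 is therefore not measured. Strain, age, IL-33 dose, sorting gates and pooling of animals are not stated in the labels. Nor do they tie each library to its own animal, and the variation among libraries, on which every SD and p rests, may be technical.

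As background, cells remove superoxide with superoxide dismutases, which make hydrogen peroxide, and remove peroxides with catalase, glutathione peroxidases and peroxiredoxins. Glutathione, a tripeptide made in consecutive steps by glutamate-cysteine ligase (Gclc and Gclm) and glutathione synthetase (Gss), feeds the glutathione peroxidases, transferases and glutaredoxins. Thioredoxins feed most peroxiredoxins, and both cofactors are returned to their reduced state with NADPH by glutathione reductase (Gsr) and thioredoxin reductases (Txnrd). The transcription factor Nrf2, encoded by Nfe2l2 and held down by Keap1, activates many of these genes through the antioxidant response element.

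Levels are given in TPM, a unit corrected for transcript length and scaled to the same total in each library, as the mean ± SD over the 3 libraries (n = 3) where only 1 value is printed. The libraries held 19948056, 19883728 and 19976129 expected counts in replicates 1, 2 and 3. ILC2 markers were present in full: 12 of 12, from Arg1 to Rora, had a mean of at least 100 TPM. Of 16 listed macrophage markers, 11 reached 1 TPM in every library, and their summed level was 410, 402 and 564 TPM in replicates 1, 2 and 3, most of it Chil3. Epithelial markers (7 of 14 detected) summed to between 57.8 and 63.8 TPM per library, most of it from Cdh1 (23.3 ± 1.02), Scgb1a1 (15.3 ± 0.980), Sftpc (9.40 ± 1.81) and Krt18 (4.60 ± 0.851), while Cyp2f2 and Foxj1 were at 0.0800 ± 0.0917 and 0.150 ± 0.0265. Erythrocyte markers (1 of 5) summed to between 4.86 and 5.47 TPM, and endothelial and stromal markers (2 of 12) to between 79.7 and 84.4 TPM, nearly all Pecam1. In bulk libraries such as these, fewer cells of a type and less RNA per cell cannot be told apart.

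Most of the antioxidant genes were expressed, as were most listed genes, and the highest, Sod1, ranked 216 of the 16129 listed genes. A gene counted as detected when every library had at least 1 TPM. By this rule 57 of 71 members (80.3%) were detected, against 67.3% of all listed genes. A mean of at least 100 TPM was reached by 18 members (25.4%), against 10.3% of all listed genes. A mean of at least 1000 TPM was reached by 0 members, against 0.843% of all listed genes. That share is too low for 0 of 71 members to stand out. The median member stood at 29.2 TPM, and the median listed gene at 11.2 TPM. Together the members took 0.511%, 0.514% and 0.517% of all TPM in replicates 1, 2 and 3. The highest 5 members held 33.0% of the members' summed level and the highest 18 held 76.2%.

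**Figure D1:**
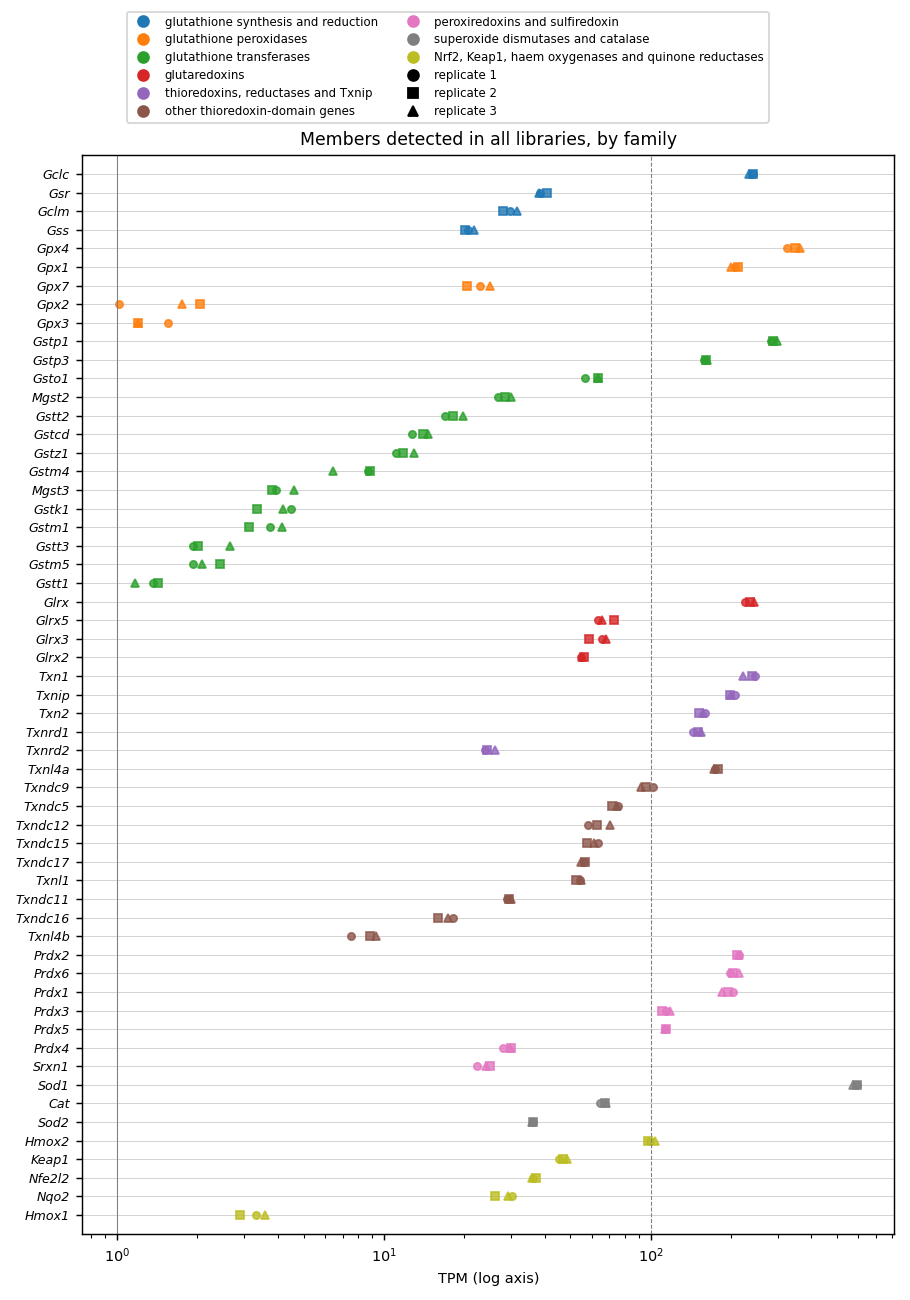
TPM (log axis) of the 57 members detected in all 3 libraries, grouped by family in colour, with 1 symbol per library; the solid line marks 1 TPM and the dashed line 100 TPM. Sod1 is farthest right, and within most families the levels run over more than a decade while the 3 symbols of a gene lie close together.

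Peroxiredoxins with sulfiredoxin formed the largest family total, at 893 ± 5.22 TPM summed (SD, n = 3), which was 17.4% of the members' total. Thioredoxins with their reductases and Txnip followed with 767.5 ± 12.5, superoxide dismutases with catalase with 690.0 ± 11.0 and the other thioredoxin-domain genes with 635 ± 4.33. Glutathione transferases summed to 613 ± 18.3 TPM over 22 listed genes, glutathione peroxidases to 576 ± 17.2 and glutaredoxins to 421 ± 12.2. The 4 genes of glutathione synthesis and reduction summed to 328 ± 2.45, and Nfe2l2, Keap1, the haem oxygenases and the quinone reductases to 216 ± 4.91.

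**Figure D2:**
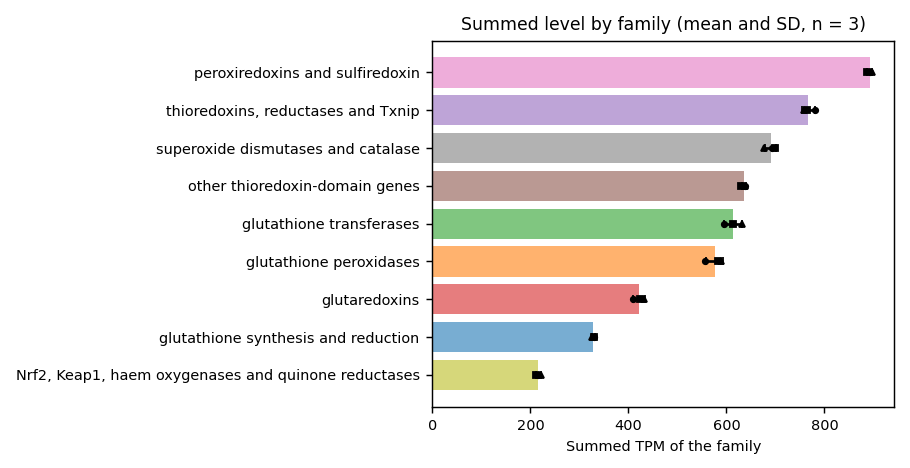
Summed TPM of each family of members, with bars for the mean of 3 libraries, error bars for the SD and symbols for the libraries. Peroxiredoxins with sulfiredoxin head the order at 892.6 TPM and the Nrf2, haem oxygenase and quinone reductase genes close it at 215.9 TPM.

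Related members were compared within each library for 17 pairs, chosen with earlier results of these data known. The pairs joined genes of the same or consecutive steps, of different compartments or branches, or of a protein and its inhibitor. The difference of log2(TPM + 1) was tested with an exact permutation test that flips signs over the 3 libraries (two-sided), which cannot give a p below 0.25. That value was reached by 15 pairs, which had 1 direction in 3 of 3 libraries, and became 0.283 after Benjamini-Hochberg adjustment over the 17. No pair could therefore pass a threshold of 0.05. For 14 pairs the mean difference was more than 3 times its SD, so these differences were larger than the spread between libraries.

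**Figure D3:**
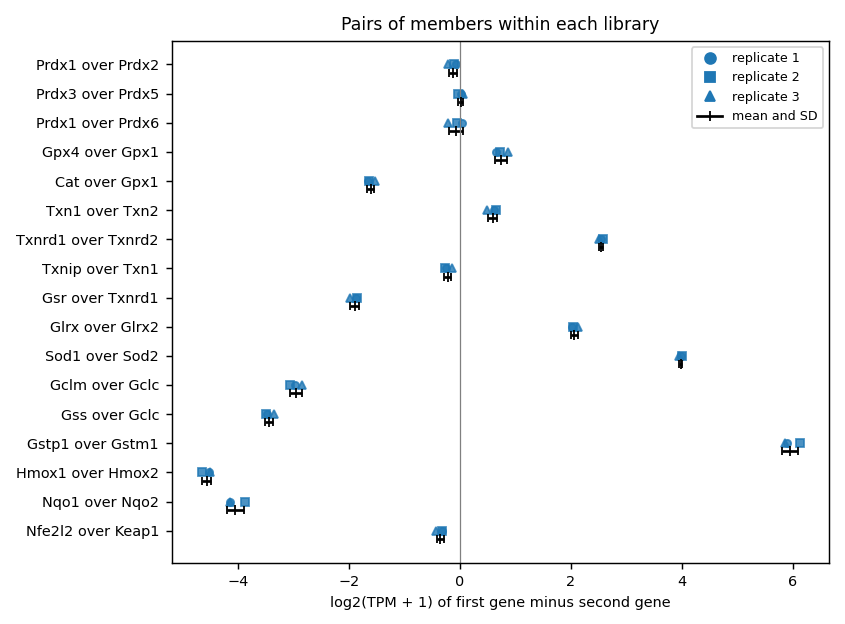
Difference of log2(TPM + 1) between the first and the second gene of 17 pairs, with a symbol for each library and the mean with its SD below the symbols; the vertical line marks equal levels. Gstp1 over Gstm1 lies farthest right, Hmox1 over Hmox2 farthest left, and the peroxiredoxin pairs lie at or near the line.

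Transcripts of the glutathione synthesis enzymes were uneven in level. Gclc, the catalytic subunit of glutamate-cysteine ligase and the rate-limiting step of the pathway, had 241, 241 and 234 TPM in replicates 1, 2 and 3. Its modifier subunit gene Gclm, whose protein lowers the enzyme's sensitivity to feedback by glutathione, had 29.6, 27.9 and 31.6 TPM in replicates 1, 2 and 3. Gss, the next enzyme, had 20.8, 20.2 and 21.9 TPM in replicates 1, 2 and 3. All 3 libraries of Gclc stood far above all libraries of the other pair. The mean ratio of Gclm to Gclc was 0.125 ± 0.00978, and that of Gss to Gclc was 0.0878 ± 0.00494 (exact sign-flip p = 0.25 for each, with Gclc higher in 3 of 3 libraries). In reads not corrected for length these ratios were 0.0743 ± 0.00566 and 0.0502 ± 0.00317. Gclc also had the most reads of any member, between 7300 and 7849 expected counts per library, and 0% of its 50-base words occur in another gene of the GENCODE M21 transcripts. Gsr, which regenerates reduced glutathione, had 38.6, 40.8 and 38.0 TPM in replicates 1, 2 and 3, and its ratio to Txnrd1, the reductase of the thioredoxin branch, was 0.263 ± 0.0136. Gclc (Entrez gene 14629) lies on chromosome 9 from 77754535 to 77794489 and Gclm (14630) on chromosome 3 from 122245487 to 122267215 in GRCm38.p6.

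Cystine supply and glutathione turnover were examined from a list of 18 genes outside the rule, of which 14 were detected, with a median of 10.8 TPM. The highest were Esd, an esterase that hydrolyses S-formylglutathione (141 ± 3.76), Slc3a2, the heavy chain shared by several amino acid transporters (137 ± 1.54), Glo1, which uses glutathione to remove methylglyoxal (64.9 ± 4.36), and Slc25a39, a mitochondrial glutathione carrier (64.1 ± 3.28). Slc7a11, the light chain that makes the cystine importer with Slc3a2, is named after its value was seen and was at 0.183 ± 0.0862 TPM and had at most 22 expected counts in a library. Cbs and Cth, which make cysteine from methionine by transsulfuration, were at 0.0133 ± 0.0231 and 0.0967 ± 0.112 TPM. The NADPH supply list had 14 of 15 listed genes detected, with a median of 33.9 TPM. It was led by the pentose phosphate genes Taldo1 (301 ± 5.64), Tkt (173 ± 9.23), Pgls (115 ± 1.69) and Pgd (102 ± 7.56), while malic enzyme gene Me1 was at 0.483 ± 0.122.

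Among glutathione peroxidases, 5 of 6 listed members were detected and 2 carried nearly the whole family. Gpx4, a selenoprotein that reduces lipid hydroperoxides in membranes and guards against ferroptosis, had 324, 347 and 362 TPM in replicates 1, 2 and 3. Gpx1, the soluble selenoprotein of the cytosol, had 207, 211 and 199 TPM in replicates 1, 2 and 3. The lowest Gpx4 library was above the highest Gpx1 library, and the mean ratio of Gpx4 to Gpx1 was 1.68 ± 0.127 (exact sign-flip p = 0.25). Of the 50-base words of Gpx4, 34.7% also occur in another annotated gene, chiefly the pseudogene Gpx4-ps2, which was not listed, so its level depends on how such reads were assigned. Gpx7, an enzyme of the endoplasmic reticulum, stood at 22.8 ± 2.27 TPM. Gpx2, known from gut epithelium, and Gpx3, the secreted plasma form, were barely detected at 1.61 ± 0.530 and 1.32 ± 0.202, from 10 to 22 expected counts per library. Gpx8 had 1 expected count in 1 library and 0 in the others, where 3 counts would correspond to 0.42 TPM.

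Selenium use, on which Gpx1, Gpx4 and the thioredoxin reductases depend, was covered by a list of 20 listed genes outside the rule. Of these 19 were detected, 5 averaged 100 TPM or more, and the median was 32.4 TPM. Selenow (422 ± 21.0), Selenot (336 ± 9.14), Selenof (260.5 ± 13.9) and Selenok (167 ± 6.57) were the highest. Dio3, a thyroid hormone deiodinase, was the undetected gene at 0.0200 ± 0.0346.

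The glutathione transferases, which attach glutathione to electrophiles, were the family with the most genes, and their levels were spread widely. Of 22 listed members 14 were detected, and only Gstp1 and Gstp3 had a mean of at least 100 TPM. Gstp1, of the pi class, had 281, 287 and 297 TPM in replicates 1, 2 and 3. Gstp3, its neighbour, had 158, 161 and 162 TPM in replicates 1, 2 and 3, and 0% of its 50-base words occur in another gene. Gstp2, which lies between them on chromosome 19, had 1.02, 0.670 and 1.73 TPM in replicates 1, 2 and 3, from 4 to 12 expected counts. The 3 genes lie within a short stretch, Gstp1 from 4035411 to 4037912, Gstp2 from 4040288 to 4042221 and Gstp3 from 4057470 to 4059605. Of the 50-base words of Gstp2, 49.1% are also found in another listed gene, and 33.7% of those of Gstp1, mostly shared between these 2 genes, so the split of reads between them is uncertain.

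The 250 bases before each Gstp start are shown because neighbouring genes of unlike level share part of this sequence. They are RefSeq promoter windows of GRCm38.p6, minus strand, written 5′ to 3′ in the gene's direction, with capitals for TGACTCA, the AP-1 heptamer, on either strand.
Gstp1, chr19:4037913-4038162: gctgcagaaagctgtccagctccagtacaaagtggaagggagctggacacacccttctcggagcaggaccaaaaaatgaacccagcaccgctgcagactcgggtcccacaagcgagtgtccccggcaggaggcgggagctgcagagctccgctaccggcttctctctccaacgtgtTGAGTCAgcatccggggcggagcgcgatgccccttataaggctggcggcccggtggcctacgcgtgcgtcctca
Gstp2, chr19:4042222-4042471: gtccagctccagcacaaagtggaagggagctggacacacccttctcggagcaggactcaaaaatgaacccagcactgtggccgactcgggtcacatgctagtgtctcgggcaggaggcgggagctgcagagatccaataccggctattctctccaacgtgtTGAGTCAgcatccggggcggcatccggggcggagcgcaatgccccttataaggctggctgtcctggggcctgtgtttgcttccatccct
Gstp3, chr19:4059448-4059697: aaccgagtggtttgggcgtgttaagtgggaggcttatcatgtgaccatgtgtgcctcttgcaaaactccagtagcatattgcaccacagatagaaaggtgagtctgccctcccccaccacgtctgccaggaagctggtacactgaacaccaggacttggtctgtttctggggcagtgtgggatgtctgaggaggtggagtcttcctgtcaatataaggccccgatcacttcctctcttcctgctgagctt
In a global alignment, the Gstp2 and Gstp1 sequences were identical at 78.5% of 265 columns, those of Gstp3 and Gstp1 at 50.7% of 292 and those of Gstp3 and Gstp2 at 51.7% of 294. The heptamer begins 74 bases before the Gstp1 start and 89 bases before the Gstp2 start, and these letters are not in the Gstp3 stretch. The Gstp2 sequence, with the lowest level, thus resembled that of Gstp1, with the highest level, more than that of Gstp3. Of the members' 300-base promoter windows 9.41% hold the heptamer (8 of 85, in 7 of 61 genes, among them Glrx, Prdx1 and Srxn1). The share was 3.98% for the windows of listed genes and 5.2% for all windows. The heptamer was chosen after these sequences were seen. The members' count includes Gstp1 and Gstp2 themselves, and overlapping Glrx windows hold the same site. The shares are therefore a description and not a test of enrichment.

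The remaining transferases lay below Gstp1 and Gstp3. Gsto1 of the omega class stood at 61.1 ± 3.85 TPM, the microsomal Mgst2, which can make leukotriene C4, at 28.4 ± 1.52, Gstt2 at 18.3 ± 1.40, Gstcd, which shares a domain with transferases, at 13.8 ± 0.953 and Gstz1, an enzyme of tyrosine breakdown, at 11.9 ± 0.962. The mu class, clustered on chromosome 3, was low throughout. Gstm4 had 8.72, 8.91 and 6.44 TPM in replicates 1, 2 and 3, the last being its lowest library. Gstm1, a major transferase of liver, had 3.74, 3.12 and 4.14 TPM in replicates 1, 2 and 3, and Gstm5 averaged 2.15 ± 0.266. Gstp1 exceeded Gstm1 at a mean ratio of 79.6 ± 10.7 (exact sign-flip p = 0.25, higher in 3 of 3 libraries), and of 44.4 ± 5.99 in reads. Mgst3, Gstk1, Gstt3 and Gstt1 averaged 4.13 ± 0.431, 3.997 ± 0.587, 2.20 ± 0.396 and 1.32 ± 0.131. Mgst1, Gstm7 and Gstp2 straddled the detection level, with 2, 1 and 2 libraries at or above 1 TPM and means of 1.16 ± 0.424, 1.15 ± 0.345 and 1.14 ± 0.540. The alpha class genes Gsta4 and Gsta3 were below 1 TPM in every library, at 0.807 ± 0.125 and 0.323 ± 0.0651. Gstm2, Gsto2 and Gstt4 had at most 2 expected counts in any library and 0 in at least 1, where 3 counts would correspond to 0.316, 0.255 and 0.33 TPM.

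Glutaredoxins, which use glutathione to reduce disulfides and to handle iron-sulfur clusters, were all detected. Glrx, the cytosolic form, had 225, 235 and 244 TPM in replicates 1, 2 and 3. Glrx2, the mitochondrial dithiol form, had 54.9, 56.4 and 55.0 TPM in replicates 1, 2 and 3, so that the groups of values did not overlap. The mean ratio of Glrx to Glrx2 was 4.23 ± 0.182 (exact sign-flip p = 0.25, higher in 3 of 3 libraries). Glrx5 and Glrx3, both linked to iron-sulfur cluster assembly, averaged 67.1 ± 4.95 and 64.1 ± 4.87 TPM.

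In the thioredoxin system the cytosolic genes stood above the mitochondrial ones, by a larger ratio for the reductases than for the thioredoxins. Txn1, the cytosolic thioredoxin, had 246, 239.7 and 221 TPM in replicates 1, 2 and 3, and Txn2 of mitochondria had 160.2, 152 and 157 TPM in replicates 1, 2 and 3. The mean ratio of Txn1 to Txn2 was 1.51 ± 0.0899. Txnrd1, the cytosolic thioredoxin reductase and a selenoprotein, had 144, 149.8 and 154 TPM in replicates 1, 2 and 3, while Txnrd2 of mitochondria had 23.9, 24.3 and 26.1 TPM in replicates 1, 2 and 3. Their mean ratio was 6.02 ± 0.134, and both pairs had p = 0.25 in the exact sign-flip test, the first gene being higher in 3 of 3 libraries. The difference between the ratios was itself seen in each library, since the Txnrd ratios were 6.01, 6.16 and 5.89 and the Txn ratios 1.54, 1.58 and 1.41 in replicates 1, 2 and 3. Txnip, which binds and inhibits thioredoxin and limits glucose uptake, had 206, 198 and 199 TPM in replicates 1, 2 and 3, close to but below Txn1 in 3 of 3 libraries (mean ratio 0.855 ± 0.0406). Txnip's place below Txn1 depends on the correction for length, since its reads were 2.35 ± 0.112 times those of Txn1, and the ratio of Txnrd1 to Txnrd2 was 10.8 ± 0.240 in reads. Txnrd3, known from testis, was below 1 TPM in all libraries at 0.477 ± 0.152.

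The other genes with a thioredoxin domain numbered 11, and 10 were detected. Some of their products do other work. Txnl4a, a component of the spliceosome and the only one with a mean of at least 100 TPM, had 174, 179 and 172 TPM in replicates 1, 2 and 3. Txndc9, which works with the chaperonin that folds actin and tubulin, averaged 96.5 ± 5.11. Txndc5 and Txndc12, disulfide isomerase-like proteins of the endoplasmic reticulum, averaged 74.1 ± 2.07 and 63.9 ± 6.22. The libraries of Txndc12 spread more than most, and Txndc12 was at 58.2, 62.9 and 70.5 TPM in replicates 1, 2 and 3. Txndc15, Txndc17, a thioredoxin-like protein of the cytosol, and Txnl1, a protein bound to the proteasome, averaged 60.7 ± 2.82, 56.0 ± 0.942 and 53.9 ± 1.28. Txndc11, Txndc16 and Txnl4b averaged 29.4 ± 0.599, 17.1 ± 1.11 and 8.58 ± 0.921. Txndc2, known from sperm, was below 1 TPM in all libraries at 0.157 ± 0.0289.

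Peroxiredoxins of the cytosol were present at like levels. Prdx2 had 213, 211 and 214 TPM in replicates 1, 2 and 3, Prdx6, the enzyme with 1 active cysteine, had 198, 203 and 214 TPM in replicates 1, 2 and 3, and Prdx1 had 204, 195 and 185 TPM in replicates 1, 2 and 3. Prdx1 was below Prdx2 in 3 of 3 libraries, at a mean ratio of 0.914 ± 0.0477 (exact sign-flip p = 0.25). Prdx1 and Prdx6 differed by less than the spread between libraries, with ratios of 1.03, 0.958 and 0.863 in replicates 1, 2 and 3 (exact sign-flip p = 0.5). The peroxiredoxins of mitochondria were also alike, with 114, 110.2 and 118 TPM in replicates 1, 2 and 3 for Prdx3 and 113, 114 and 113 TPM in replicates 1, 2 and 3 for Prdx5. Their mean ratio was 1.01 ± 0.0356 (exact sign-flip p = 0.75), and its direction differed between libraries. Of the 50-base words of Prdx5 15.5% are shared with another listed gene, its neighbour Trmt112. Prdx4 of the endoplasmic reticulum averaged 29.2 ± 1.14 TPM, and Srxn1, the sulfiredoxin that revives overoxidised peroxiredoxins, averaged 23.9 ± 1.43. Prdx6b, a relative of Prdx6, had 1 expected count in 1 library and 0 in the other libraries.

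Sod1, the copper-zinc superoxide dismutase of the cytosol, was the highest member, with 592, 595 and 573 TPM in replicates 1, 2 and 3. Sod2, the manganese enzyme of mitochondria, had 36.3, 36.2 and 36.0 TPM in replicates 1, 2 and 3. The ratio of Sod1 to Sod2 was 16.2 ± 0.252 (exact sign-flip p = 0.25, higher in 3 of 3 libraries), and most of this distance rests on the correction for length, since the ratio of their reads was 2.53 ± 0.0391. Of the 50-base words of Sod2, 16.9% also occur in another listed gene, so its level is less certain. Sod3, the secreted form, was near 0 at 0.160 ± 0.0500, from 2 to 4 expected counts per library. Catalase, the haem enzyme of peroxisomes, had 64.8, 67.4 and 68.2 TPM in replicates 1, 2 and 3, and the mean ratio of Cat to Gpx1 was 0.325 ± 0.0151 (exact sign-flip p = 0.25, lower in 3 of 3 libraries), against a ratio of 0.815 ± 0.0380 in reads not corrected for length.

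The order of the 18 highest members was clear at its top and close in its middle. Among 17 neighbouring pairs in this order, the 3 values of 1 gene lay entirely above the 3 of the next in 8 pairs and overlapped in 9. Sod1, Gpx4 and Gstp1 each stood clear of the next gene. Gclc, Txn1 and Glrx could not be ordered beyond their spread, nor could the run of Prdx2, Gpx1, Prdx6 and Txnip from each to the next. The ranges of Txnip and Prdx1 overlapped, as did those of Txn2 and Txnrd1, but the first gene of each was higher in 3 of 3 libraries.

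Nrf2 and its inhibitor were expressed at similar moderate levels. Nfe2l2 had 36.0, 37.3 and 35.8 TPM in replicates 1, 2 and 3, and Keap1, which marks Nrf2 for degradation, had 45.3, 47.0 and 48.4 TPM in replicates 1, 2 and 3. Nfe2l2 was lower in 3 of 3 libraries, at a mean ratio of 0.776 ± 0.0327 (exact sign-flip p = 0.25). Of the regulators and partners outside the rule, 14 of 15 were detected, with a median of 26.2 TPM. Sqstm1, the autophagy receptor p62 that binds Keap1, was the highest at 404 ± 4.59, followed by Nfe2l1 (78.2 ± 1.65), the ligase scaffold Cul3 (73.8 ± 0.671) and Dpp3 (56.1 ± 2.63), while Nfe2l3 was at 0.293 ± 0.0751.

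Genes often used as readouts of Nrf2 differed widely in level. Nqo1, a quinone reductase, was below 1 TPM in every library, with 0.760, 0.840 and 0.700 TPM in replicates 1, 2 and 3, from 10 to 12 expected counts. Its relative Nqo2 had 30.1, 26.1 and 29.2 TPM in replicates 1, 2 and 3, although 17.5% of its 50-base words are shared with Serpinb6a. The inducible haem oxygenase Hmox1 had 3.33, 2.89 and 3.58 TPM in replicates 1, 2 and 3, and the constitutive Hmox2 had 99.2, 97.5 and 104 TPM in replicates 1, 2 and 3. The mean ratio of Nqo1 to Nqo2 was 0.0271 ± 0.00443 and that of Hmox1 to Hmox2 was 0.0326 ± 0.00261 (exact sign-flip p = 0.25 for each, lower in 3 of 3 libraries). In reads, the ratio of Nqo1 to Nqo2 was 0.0121 ± 0.00194. Of the 50-base words of Hmox2 41.9% occur in another listed gene, mostly its neighbour Cdip1. Other genes named as Nrf2 targets, Gclc and Txnrd1, were among the 18 members with a mean of at least 100 TPM, and Srxn1 and Gclm were not. Of a list of 20 further Nrf2 targets outside the rule 16 were detected, with a median of 44.1 TPM. Their top was held by the ferritin genes Fth1 (1074 ± 43.8) and Ftl1 (1012 ± 31.1), which store iron, Akr1a1 (458 ± 14.0) and Taldo1, and Aox1 and Cbr3 were at 0.00667 ± 0.0115 and 0.160 ± 0.147.

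The core of the antioxidant response element, TGACNNNGC on either strand, was searched in the 300-base RefSeq promoter windows (250 bases before and 50 after a start, GRCm38.p6) of the 61 members with such a window. It was present in 13 of 85 windows (15.3%), each in a different gene, against 14.0% of the 16147 windows of listed genes and 12.4% of all 32851 windows. By gene, 21.3% of members, 16.5% of listed genes and 14.0% of all genes had a match. Among detected members 9 of 50 had a match, and among members not detected 4 of 11. In 1 of the 13 windows, that of Prdx1, the match also contains TGACTCA. The 250 bases before the start are shown for 4 members with a match whose levels are described above, plus strand, 5′ to 3′, with the match in capitals.
Gclm, chr3:122245307-122245556: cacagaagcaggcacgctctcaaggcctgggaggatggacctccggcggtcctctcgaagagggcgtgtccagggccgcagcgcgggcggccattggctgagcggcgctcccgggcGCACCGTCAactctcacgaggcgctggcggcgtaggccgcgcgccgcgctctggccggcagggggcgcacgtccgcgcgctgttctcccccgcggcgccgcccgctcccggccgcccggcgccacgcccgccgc
Prdx1, chr4:116685349-116685598: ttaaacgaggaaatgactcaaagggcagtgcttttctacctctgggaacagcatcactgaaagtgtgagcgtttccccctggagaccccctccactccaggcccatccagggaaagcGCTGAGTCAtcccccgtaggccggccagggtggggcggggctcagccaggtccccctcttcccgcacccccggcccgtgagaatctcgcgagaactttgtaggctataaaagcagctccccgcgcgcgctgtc
Sod1, chr16:90220512-90220761: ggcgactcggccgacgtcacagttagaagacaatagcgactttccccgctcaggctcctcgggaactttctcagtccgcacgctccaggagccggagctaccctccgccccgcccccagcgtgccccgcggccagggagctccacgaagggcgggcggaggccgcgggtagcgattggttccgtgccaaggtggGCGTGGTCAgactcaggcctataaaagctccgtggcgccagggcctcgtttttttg
Txnrd1, chr10:82858956-82859205: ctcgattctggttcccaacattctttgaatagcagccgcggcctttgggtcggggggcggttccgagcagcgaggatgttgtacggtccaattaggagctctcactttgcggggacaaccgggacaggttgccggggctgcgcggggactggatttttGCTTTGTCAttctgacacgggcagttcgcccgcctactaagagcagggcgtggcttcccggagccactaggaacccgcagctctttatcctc
The matches begin 134 bases before the start in Gclm, 133 in Prdx1, 56 in Sod1 and 92 in Txnrd1, which has other starts without a match. These 4 genes ranged from 29.7 ± 1.88 TPM for Gclm to 587 ± 11.8 TPM for Sod1. The windows of Nqo1, Gpx4 and Gstp1 hold no match. Another 10 members, Gclc and Hmox1 among them, had no window and were not searched. A match is a description of these letters and not a measured binding site.

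Sources of superoxide and peroxide were described from 16 listed genes outside the rule, of which 11 were detected, with a median of 3.88 TPM. The highest were the GTPase gene Rac2 (561 ± 16.7), the NADPH oxidase subunit gene Cyba (456 ± 14.4), Ero1l, the oxidase of disulfide formation in the endoplasmic reticulum (367 ± 15.3), and Rac1 (270.4 ± 13.8). Duox1 and Duox2 had at most 1 expected count in a library. Cybb, the catalytic subunit of the phagocyte oxidase, is named after its value was seen and stood at 1.32 ± 0.243. The 16 listed macrophage markers had a median of 4.0 TPM, with Cd68 at 4.81 ± 1.02. The part of macrophage transcripts in the Cybb level was not tested. Thiol repair genes were detected for 13 of 15, with a median of 34.5 TPM, led by the disulfide isomerases Pdia3 (661 ± 4.58), P4hb (326 ± 11.0) and Pdia6 (191 ± 9.33) and by Park7 (182 ± 8.75), while Msrb3 and Pxdn were at 0.423 ± 0.0874 and 0.0233 ± 0.00577. The ferroptosis and iron storage list had 12 of 14 detected, with a median of 14.1 TPM, and after the ferritins Lpcat3 (134 ± 4.49) and Ncoa4 (95.7 ± 2.51) were highest, while Alox12 and Slc40a1 were at 0.223 ± 0.0723 and 0.0233 ± 0.0404.

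The members varied between libraries about as little as other listed genes of their level. Among the 46 members with a mean of at least 10 TPM, 0 had a range of log2(TPM + 1) of 0.5 or more. The share was 0.278% of the 8262 listed genes with that mean, too low for 0 of 46 members to stand out. Their median coefficient of variation was 3.8%, against 3.87% for those 8262 genes, and the counting error alone would give a median of 2.87%. In 14 of the 46 (30.4%) the coefficient was below the counting error of its own reads, against 34.3% of the 8262 genes, a like share. The widest range was that of Gpx7, at 0.28 on the log2 scale, from 227 to 277 expected counts. Txndc12 had the next widest range, 0.27. Prdx5 and Sod2 had the lowest coefficients, 0.324% and 0.534%, both below the counting errors of their reads, 2.75% and 2.77%.

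**Figure D4:**
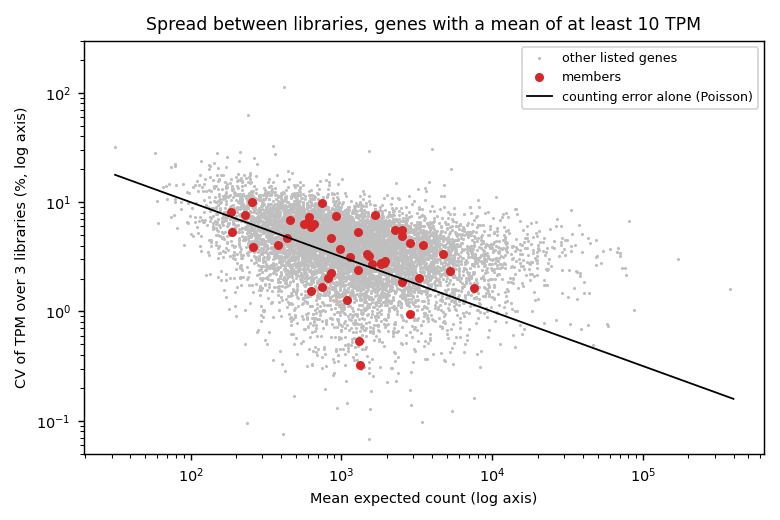
Coefficient of variation of TPM over the 3 libraries (percent, log axis) against the mean expected count (log axis), for the 46 members (red) and the other listed genes (grey) averaging 10 TPM or more; the line shows counting error alone. The members lie within the cloud of the other genes, with a median of 3.8%.

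Replicate 3 held more macrophage transcripts than the other libraries, while the abundant members were near their level in the other libraries. The 11 detected macrophage markers had, in replicate 3, 1.29 to 1.63 times their mean TPM of replicates 1 and 2, with a median of 1.41. For the 46 members averaging 10 TPM or more the same ratio ran from 0.909 for Txn1 to 1.16 for Txndc12, with a median of 1.03. For the 12 ILC2 markers it ran from 0.965 to 1.04. Of the 14 members with a mean from 1 to 10 TPM, 4 had a ratio above 1.3, namely Gstp2 (2.05), Mgst1 (1.77), Gstm7 (1.62) and Gstt3 (1.35), against 7.45% of the 2780 listed genes with that mean. Below 0.8 was 1 of the 14, Gstm4 at 0.731, against 8.74% of those genes. Gstp2, Mgst1, Gstm7 and Gstt3 had at most 46 expected counts in a library, and the part of macrophage transcripts in their levels was not tested.

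**Figure D5:**
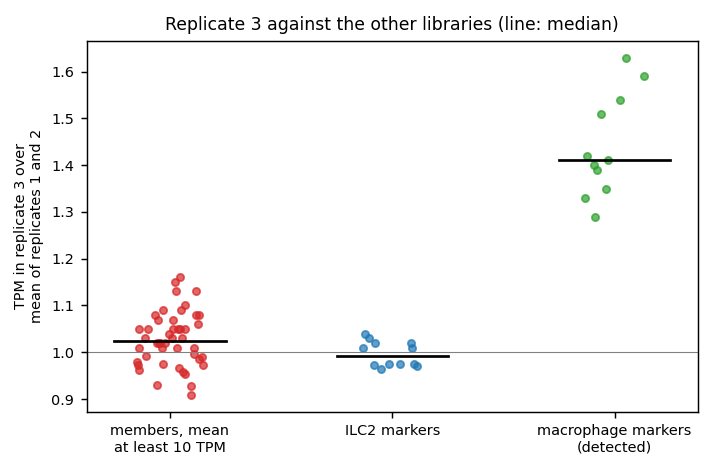
TPM in replicate 3 over the mean TPM of replicates 1 and 2, for the members averaging 10 TPM or more, the ILC2 markers and the detected macrophage markers, with a point per gene and a line at the median. The members lie between 0.909 and 1.16 and all macrophage markers lie above them, from 1.29.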

How the data were processed

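Per the submitters' processing notes, Bowtie2, RSEM 1.3.1 and GRCm38.p6 were used, and neither annotation nor settings are stated. Per the file headers, the authors deposited TPM, FPKM, expected counts and normalised read counts. The last, a depth-scaled signal deposited by the authors, was used only to check that it is the rounded-up expected count times 1.00144, 1 and 0.997004 in replicates 1, 2 and 3. Depth was 19883728 to 19976129 expected counts per library, and floors (3 counts) and Poisson errors cover counting error only.

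RefSeq has 78 protein-coding genes that match the rule, and 7 were not listed and not analysed here. All 71 members matched by gene ID. The members, lists, pairs and thresholds were chosen with earlier results of these data known. The TGACTCA search and the Gstp stretches were added after the sequences were seen. Every member is named, per library where its mean is at least 100 TPM or it is in a pair. From each pathway list up to 4 highest genes and, in alphabetical order, up to 2 below 1 TPM in all libraries are named. Slc7a11, Cybb and the Chil3, Cd68, Pecam1 and ILC2 markers were named after their values were seen. Shared sequence is the share of 50-base words of a gene's GENCODE M21 transcripts that occur in another gene, on either strand. It was also 18.9% for Gstm1, 15.7% for Txnip and 15.1% for Glrx3, nearly all in genes not listed. Members whose share is not given had lower shares.

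Pairs of libraries, compared by chi-square on rounded counts (genes with 20 or more reads in the pair), gave a statistic of 2.48 to 3.47 per gene, more than counting error alone gives. edgeR 4.0.16 on rounded expected counts, with an intercept only, gave a biological coefficient of variation of 3.46% over 11981 genes. DESeq2 1.42.0 size factors were an alternative scaling. The programs were tested on simulated data. A planned comparison of member proteins was not made here.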

Additional observations from a re-analysis of the deposited data

How the results depend on the processing

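The count of detected members lay between 48 and 62 under detection levels of 5 and 0.5 TPM, FPKM, or without 1 replicate. The 18 members with a mean of at least 100 TPM became 29 at a level of 50 TPM and 7 at 100 FPKM, since FPKM values are lower. The share of the members in all TPM, 0.514%, was 0.37% of expected counts, which do not correct for length, and 0.657% when ribosomal protein genes were left out of the total. Of 102 alternative values of the 17 pair differences, 100 kept their direction, but most of them could not have changed it. For the 15 pairs with 1 direction in all 3 libraries, only the values without the correction for length could reverse. Without the correction for length the ratio of 8 of the 17 pairs moved by more than 1.5 times, most for Sod1 to Sod2 (2.53 in place of 16.2), Txnip to Txn1 (2.35 in place of 0.855, a log2 difference of 1.22 in CPM) and Cat to Gpx1 (0.815 in place of 0.325). Prdx3 minus Prdx5 ran from -0.015 to 0.035 when 1 replicate was left out. With no filter on low values, 3 members had a log2 range of 0.5 or more instead of 0, while TMM and DESeq2 scaling and a range of 1 left 0. No paired analysis was possible because the 3 libraries form 1 group. Depth limits members with few reads: below about 1 TPM they rest on 17 or fewer expected counts per library.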
